A study of Mus musculus with 6 samples.

Results

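Expression of 10 genes of adhesion, membrane repair and the cytoskeleton that antigen-experienced T cells use was followed in splenic CD8+ T cells: Cd44, 3 annexins (Anxa1, Anxa2 and Anxa5), 2 galectins (Lgals1 and Lgals3), Vim, Crip1, Ahnak and Itgb1. They are 10 of the 28773 genes in the files, and all 10 are among the 12444 genes with a mean FPKM of at least 1. FPKM counts fragments scaled by transcript length and by the mapped fragments of the library. The genes were chosen by name with their difference between the treatment groups in these same samples already known. That difference is therefore given as a description, without a test.

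RNA was sequenced in bulk from mouse CD8+ T cells, taken from the spleen at day 35 with a CD8+ T cell isolation kit, in 2 groups of 3 samples. Both groups carried a tumour that was treated by microwave ablation (MWA), so ablation is common to all samples and no untreated or 2DG-only group entered the comparison. The MWA+PBS group (samples 1, 2 and 3) then received PBS as vehicle, and the MWA+2DG group (samples 4, 5 and 6) received 2-deoxy-D-glucose (2DG), a glucose analogue that blocks glycolysis. The labels give no strain, age, tumour line or pooling for these samples; the study's main model was the mammary carcinoma line 4T1 in female BALB/c mice. The comparison asks how the cells differed once glycolysis had been interfered with after ablation.

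CD44 is a surface receptor for hyaluronan that stays high on T cells once they have met antigen, and a high level is used to tell memory and effector cells from naive ones. Annexins are cytosolic proteins that bind membrane phospholipids in the presence of calcium, and several work in pairs with S100 proteins. Galectins bind beta-galactoside sugars on glycoproteins and can act inside or outside the cell. Activated and memory T cells are known to raise many of these genes together with integrin beta 1 and vimentin, but macrophages and granulocytes express them too.

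Markers of other cell types differed between the groups, and their part in the values of the 10 genes was not tested. In this paragraph called means an adjusted p under 0.05 in the limma fit across all tested genes. Summed FPKM of 15 T lineage genes was 1714 to 1801 with PBS and 2388 to 2548 with 2DG, with 14 of 15 called higher. All 17 tested monocyte and macrophage markers of 18 were lower, with sums of 792 to 861 against 123 to 130. Of 16 neutrophil markers 11 were higher and 4 were lower, with sums of 414 to 454 against 1655 to 1839. With T lineage scaling (each sample set to the mean log2 value of its T lineage genes), the 17 macrophage genes stayed below 0 and the 11 neutrophil genes above 0. B cell markers were higher for 10 of 10 genes, at 12.4 to 13.5 against 75.9 to 81.2. Erythroid markers were lower for 8 of 8 tested genes, at 292 to 348 against 67.0 to 84.7. Plasma cell sums were 61.9 to 68.9 against 27.4 to 28.9, platelet sums 13.98 to 18.2 against 4.89 to 7.72, and dendritic cell sums 9.22 to 11.1 against 4.14 to 5.12. Natural killer cell sums (7.99 to 9.19 against 6.58 to 7.00), CD4 and regulatory T cell sums (11.3 to 12.2 against 8.58 to 9.04) and stromal sums (26.2 to 28.6 against 26.1 to 28.6) differed less. The CD8 chain gene Cd8a was 231.5 ± 6.96 and 366.4 ± 9.47 FPKM, Cd3e 97.3 ± 7.98 and 127.0 ± 13.2, and no list had a gene at 0 in all 6 samples. The macrophage complement gene C1qa was 130.1 ± 7.43 against 20.3 ± 1.84 FPKM, the neutrophil granule gene Ngp 26.8 ± 4.39 against 613.9 ± 30.6, the granule enzyme genes Mpo 226.1 ± 22.2 against 33.4 ± 0.847, Elane 47.2 ± 3.05 against 10.7 ± 1.42, Prtn3 36.2 ± 5.61 against 6.90 ± 0.344 and Ctsg 43.0 ± 2.59 against 9.13 ± 1.51 (the 4 lower neutrophil markers), the B cell receptor gene Cd79a 1.22 ± 0.261 against 12.5 ± 1.48, and the myeloid lysozyme gene Lyz2 170.8 ± 12.1 against 227.2 ± 15.4 (SD, n = 3). In bulk samples, fewer cells of a type and less RNA per cell cannot be told apart.

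Of the 10 genes, 7 were lower in MWA+2DG (Cd44, Anxa2, Anxa5, Lgals1, Lgals3, Vim and Crip1) and 3 were higher (Anxa1, Ahnak and Itgb1), and on deposited FPKM, in all 10, the 3 samples of one group lay entirely above the 3 of the other. Among all 12444 tested genes, 21.9% were lower without overlap and 30.2% were higher without overlap. Because the 10 were chosen on this contrast, nothing is read from that count. Their median log2 difference on log2(FPKM + 1), MWA+2DG minus MWA+PBS, was -0.32, beside 0.05 for all tested genes. Anxa1 alone differed by more than 2-fold, and its absolute difference stood above that of 99.2% of tested genes.

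**Figure D1:**
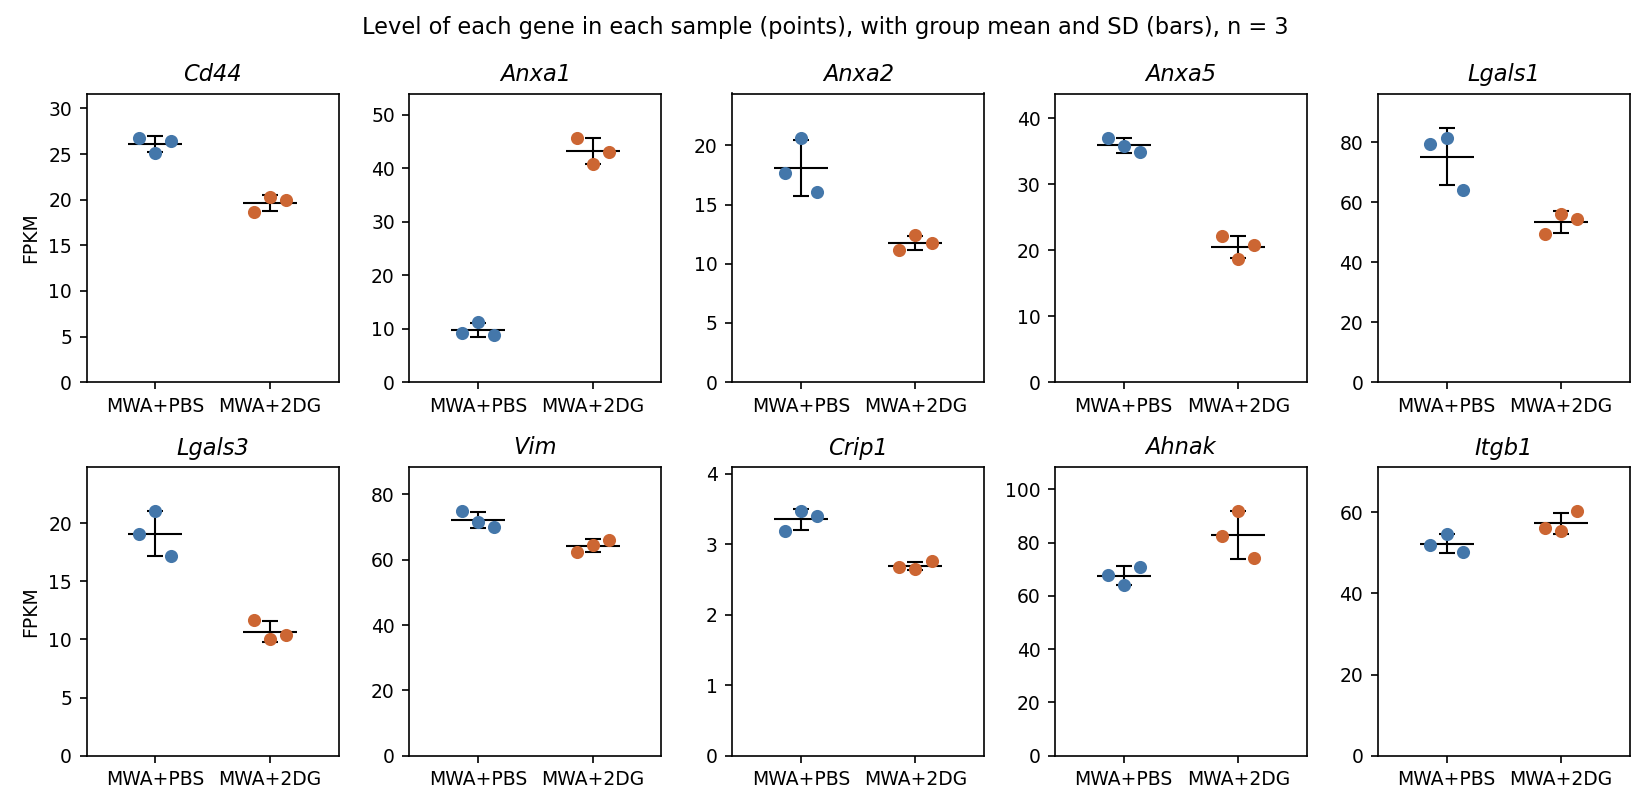
FPKM (vertical axes, each from 0) of the 10 genes in the 3 MWA+PBS and the 3 MWA+2DG samples, with points for samples, long bars for group means and whiskers for SD. Anxa1 went from 9.77 to 43.2 FPKM, while for Itgb1 the groups were only 0.53 FPKM apart at their nearest samples.

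Cd44 (ENSMUSG00000005087) was 26.8, 25.1 and 26.4 FPKM in MWA+PBS samples 1 to 3 and 18.65, 20.3 and 20 FPKM in MWA+2DG samples 4 to 6. The means were 26.1 ± 0.877 and 19.7 ± 0.879 FPKM (SD, n = 3), 1.33-fold higher with PBS, and the log2 difference was -0.39 ± 0.06 (SE). All 3 MWA+PBS samples were above all 3 MWA+2DG samples, by 4.84 FPKM at the nearest pair. Relative to Cd8a, Cd44 went from 0.113 ± 0.00686 to 0.0536 ± 0.00265 FPKM per FPKM.

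The 5 tested genes nearest to Cd44 in pattern were found by the root mean square difference of log2(FPKM + 1) over the 6 samples, each gene centred on its own mean. They were Itpk1, an inositol phosphate kinase (0.0237), Ipo5, a nuclear import receptor (0.0270), Mapk14, the p38 alpha kinase (0.0323), Lipa, the lysosomal acid lipase (0.0325), and Foxk2, a forkhead factor (0.0335). Their log2 differences were between -0.36 and -0.41. This distance includes the difference between the groups, so values close to that of Cd44 follow from the way these genes were picked. None of the other 9 genes was among them. Each of those 9 had a log2 difference further from that of Cd44, so nothing is read from their absence.

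A list of 12 genes held ligands, binding partners and linkers of Cd44 along with 3 hyaluronan synthases and the protease gene Mmp14, and these 4 were too low to be tested. Of the 8 tested, limma called 4 lower and 1 higher, while with T lineage scaling 8 were called lower. On deposited FPKM, 17.1% of all tested genes were called lower and 22.3% were called higher (adjusted p under 0.05). With T lineage scaling, which moves every gene by -0.45, 8907 of the 12444 tested genes were called lower and 433 higher. Counts called on that scale in each list below stand beside these numbers. The ligand gene Spp1 (osteopontin) was 3.42, 2.54 and 1.22 FPKM in MWA+PBS and 0.25, 0.76 and 0.57 FPKM in MWA+2DG, and the log2 difference was -1.11 ± 0.25 (adjusted p = 0.0114). The granule proteoglycan gene Srgn, whose product can bind CD44, fell by 0.27 (adjusted p = 0.0227), and the second hyaluronan receptor Hmmr, which is also a mitotic gene, fell by 0.64 on the log2 scale (adjusted p = 0.00171). The adaptor Nf2 (merlin) also fell (-0.26, adjusted p = 0.0103). Ezr (ezrin), which ties CD44 to the actin cortex, was higher at 0.17 ± 0.06 (adjusted p = 0.0472) but -0.28 with T lineage scaling, and Msn (moesin), a paralogue and the highest gene of the list, was 200 ± 8.97 and 217 ± 1.15 FPKM (adjusted p = 0.126). The call of Ezr was lost in 11 alternatives with adjusted p up to 0.144, among them leaving out any sample except MWA+2DG sample 5, and that of Srgn was lost with no filter and without MWA+PBS sample 1 or MWA+2DG sample 4 or 5 (adjusted p up to 0.0731).

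The 3 annexins split. Anxa1 (ENSMUSG00000024659), whose product limits phospholipase activity and neutrophil recruitment, was 9.27, 11.3 and 8.77 FPKM in MWA+PBS and 45.7, 40.8 and 43.0 FPKM in MWA+2DG. Its means were 9.77 ± 1.33 and 43.2 ± 2.45 FPKM, 4.42-fold higher with 2DG, and the log2 difference was 2.04 ± 0.09. The lowest MWA+2DG sample stood 29.5 FPKM above the highest MWA+PBS sample. Anxa1 is abundant in neutrophils, and the neutrophil marker sums given above rose with it, although 4 of the 16 markers fell; their part in the Anxa1 difference was not tested.

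Anxa2 (ENSMUSG00000032231), which forms a membrane-bridging tetramer with S100A10, was 17.7, 20.7 and 16.02 FPKM in MWA+PBS and 11.2, 12.4 and 11.7 FPKM in MWA+2DG. The means were 18.1 ± 2.35 and 11.8 ± 0.602 FPKM, and the log2 difference was -0.58 ± 0.09. Anxa5 (ENSMUSG00000027712), the phosphatidylserine binder known from apoptosis assays, was 37.1, 35.8 and 34.9 FPKM in MWA+PBS and 22.1, 18.7 and 20.7 FPKM in MWA+2DG. The means were 35.9 ± 1.11 and 20.5 ± 1.70 FPKM, 1.75-fold higher with PBS, and the log2 difference was -0.78 ± 0.07. Both genes were lower in each MWA+2DG sample than in any MWA+PBS sample. Macrophages express both, and the macrophage marker sums fell in the same samples; their part was not tested.

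Ratios within a sample show the split without any scaling. Anxa1 over Anxa2 was 0.525, 0.546 and 0.547 in MWA+PBS and 4.08, 3.29 and 3.67 in MWA+2DG. Anxa1 over Anxa5 went from 0.272 ± 0.0373 to 2.11 ± 0.0634, whereas Anxa2 over Anxa5 was 0.505 ± 0.0640 and 0.578 ± 0.0786 with overlapping groups. Anxa1 was thus the least abundant of the 3 with PBS and the most abundant with 2DG.

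The sequences just before the transcription start of the 3 annexin genes are shown because members of a single family moved in opposite directions. They are the 250 bases upstream of the RefSeq start in GRCm38.p6, 5′ to 3′ on the gene's strand. Anxa1 is at chr19:20390672-20390921 (minus strand), Anxa2 at chr9:69453433-69453682 (plus strand) and Anxa5 at chr3:36475888-36476137 (minus strand). Capitals mark matches to the letters TATAAA of the TATA box, to the letters TGANTCA of AP-1 sites and to the letters GGGCGG of GC boxes, searched on both strands, and no matches overlapped in these sequences.
Anxa1: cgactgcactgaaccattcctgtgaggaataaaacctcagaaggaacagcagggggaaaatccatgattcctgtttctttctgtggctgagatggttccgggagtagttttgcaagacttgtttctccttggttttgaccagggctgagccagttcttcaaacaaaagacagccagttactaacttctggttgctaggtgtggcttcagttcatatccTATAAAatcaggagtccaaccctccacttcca
Anxa2: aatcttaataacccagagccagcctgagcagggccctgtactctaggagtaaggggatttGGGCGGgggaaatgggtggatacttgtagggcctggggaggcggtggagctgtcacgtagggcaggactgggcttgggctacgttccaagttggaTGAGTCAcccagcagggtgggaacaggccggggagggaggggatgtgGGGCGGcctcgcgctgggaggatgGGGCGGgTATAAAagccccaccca
Anxa5: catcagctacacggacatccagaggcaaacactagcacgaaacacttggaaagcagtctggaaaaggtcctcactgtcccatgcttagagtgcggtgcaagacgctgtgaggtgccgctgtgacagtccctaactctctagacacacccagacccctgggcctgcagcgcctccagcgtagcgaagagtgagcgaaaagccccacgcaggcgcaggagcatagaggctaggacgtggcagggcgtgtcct
Anxa1 holds a TATA box whose first base is at -32, counted from -1 just before the start, and has 46% G and C with 2 CpG. Anxa2 holds a TATA box at -17, an AP-1 match at -95 and 3 GC boxes, with 62.4% G and C and 9 CpG. Anxa5 holds none of these letters and has 58.8% G and C with 13 CpG, beside medians of 52.4% and 6 CpG over 32851 RefSeq promoters.

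Promoters were found for 9 of the 10 genes. Including the 50 bases after the start, TATAAA was present in 3 of 9 (Vim, Anxa1 and Anxa2) and in 13.6% of all promoters, TGANTCA in 1 of 9 and 7.81%, and GGGCGG in 6 of 9 and 35.7%. The heat shock element GAANNTTC was in 0 of 9 and in 7.86%. The TATA box was found both in Anxa1, which was higher, and in Anxa2 and Vim, which were lower. These matches describe the letters of the windows and say nothing of binding.

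Summed over 11 annexin genes, FPKM was 270.7 ± 5.22 with PBS and 307.3 ± 4.53 with 2DG. Anxa1 took 3.61% ± 0.534 of that sum with PBS and 14.04% ± 0.590 with 2DG, while Anxa2 went from 6.70% to 3.83% and Anxa5 from 13.3% to 6.67%. Anxa6, the largest annexin and the most abundant one here, held 64.0% ± 2.06 and 64.6% ± 0.940, with overlapping groups. In FPKM, Anxa6 was 180, 164 and 176 against 199, 199 and 197, a log2 difference of 0.20 ± 0.05 (limma, adjusted p = 0.0237) that became -0.26 with T lineage scaling, and the call was lost in 6 other alternatives (adjusted p up to 0.114), among them leaving out MWA+2DG sample 4, 5 or 6. Of the 5 other annexins tested, Anxa6 was called higher and Anxa4 lower (-0.83 ± 0.10, adjusted p = 0.00057). The median of these 5 was 0.09, and -0.36 with T lineage scaling.

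**Figure D2:**
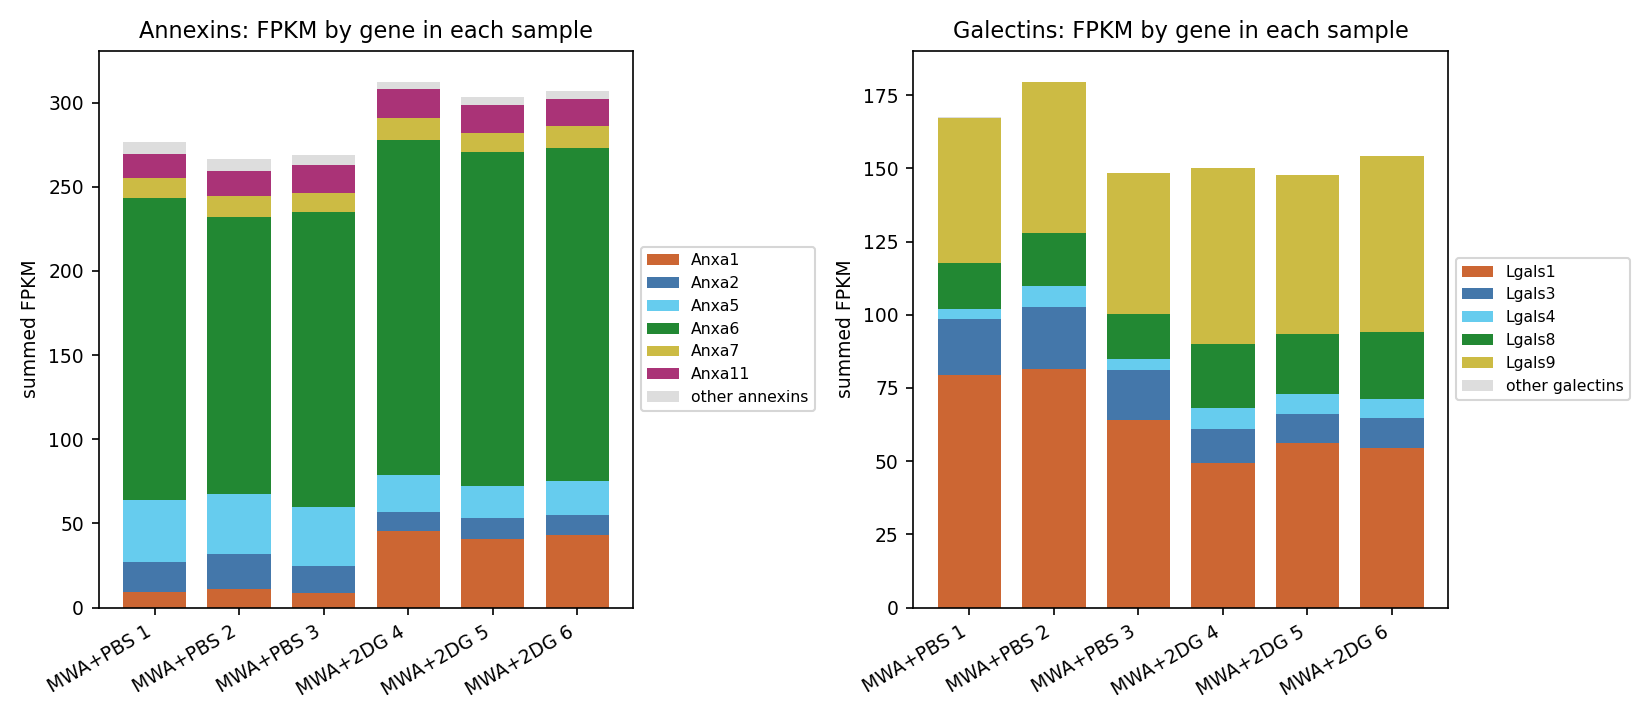
Stacked bars of FPKM (vertical axes, from 0) by gene for the annexins (left) and the galectins (right) in each of the 6 samples. Anxa1 grew from 3.61% to 14.04% of annexin FPKM while Anxa6 stayed near 64%, and Lgals1 shrank from 45.3% to 35.4% of galectin FPKM.

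The S100 partners of the annexins are small calcium-binding proteins. S100a10 was 52.6, 56.6 and 47.0 FPKM in MWA+PBS and 62.8, 52.7 and 55.1 FPKM in MWA+2DG, with overlap (log2 difference 0.12 ± 0.09, limma, adjusted p = 0.306). S100a10 over Anxa2 was 2.88 ± 0.127 with PBS and 4.85 ± 0.691 with 2DG. S100a11, a partner of ANXA1, was 96.9 ± 5.597 and 103.1 ± 9.504 FPKM (0.09, adjusted p = 0.429), and Anxa1 over S100a11 went from 0.101 to 0.421. Of the 4 S100 genes, limma called S100a6 higher (0.56 ± 0.18, adjusted p = 0.0377), a call lost with T lineage scaling (adjusted p = 0.557), with no filter and without MWA+PBS sample 1 or any MWA+2DG sample, and S100a4 was 15.0 ± 3.84 and 15.0 ± 1.86 FPKM. Of the 4, 3 were called lower with T lineage scaling, as were 8907 of all 12444 tested genes.

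Both galectins were lower with 2DG. Lgals1 (ENSMUSG00000068220), the most abundant of the 10 genes in MWA+PBS, encodes a dimeric galectin that activated T cells make and secrete. It was 79.5, 81.5 and 64.1 FPKM in MWA+PBS and 49.3, 56.1 and 54.5 FPKM in MWA+2DG, with means of 75.03 ± 9.49 and 53.3 ± 3.55 FPKM and a log2 difference of -0.48 ± 0.10. MWA+PBS sample 3 lay well below the other MWA+PBS samples, but still 8.02 FPKM above the highest MWA+2DG sample.

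Lgals3 (ENSMUSG00000050335), a chimaera-type galectin that is abundant in macrophages, was 19.1, 21.1 and 17.2 FPKM in MWA+PBS and 11.7, 10.01 and 10.4 FPKM in MWA+2DG. The means were 19.1 ± 1.94 and 10.7 ± 0.875 FPKM, 1.79-fold higher with PBS, and the log2 difference of -0.78 ± 0.09 was like that of Anxa5. Macrophage markers fell in the same samples, their sum by 6.48-fold, and their part in the Lgals3 difference was not tested. Lgals1 over Lgals3 went from 3.92 ± 0.223 to 5.03 ± 0.718 without overlap.

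The list of other galectins also held Lgals3bp, which encodes a galectin-binding protein, and the galectin-related Lgalsl. Of its 5 tested genes, limma called 4 higher and 0 lower (4 and 0 at an unadjusted p under 0.05), but with T lineage scaling all 4 were below 0. Of the 3 galectins proper among them, Lgals8 and Lgals9 were called, and Lgals4 was 4.82 ± 2.24 and 6.91 ± 0.368 FPKM with overlap (adjusted p = 0.115). Lgals9, a tandem-repeat galectin, was 49.6, 51.7 and 48.3 FPKM in MWA+PBS and 60.2, 54.1 and 60.1 FPKM in MWA+2DG (0.22 ± 0.06, adjusted p = 0.0250; -0.24 with T lineage scaling), and the call was lost without MWA+PBS sample 1 or 3 or MWA+2DG sample 4 or 6 (adjusted p up to 0.0911). The call of Lgalsl (adjusted p = 0.0456) was lost in 9 of 15 alternatives, among them leaving out any sample except MWA+PBS sample 2, and that of Lgals3bp (adjusted p = 0.0159) without MWA+PBS sample 3 or MWA+2DG sample 4 or 6 (up to 0.137 and 0.0637). Lgals8, a galectin of the same type as Lgals9, was higher at 0.39 ± 0.07 (adjusted p = 0.00437; -0.07 with T lineage scaling). As shares of galectin FPKM, which a single factor per sample leaves unchanged, Lgals1 fell from 45.3% ± 2.13 to 35.4% ± 2.59 and Lgals3 from 11.6% ± 0.174 to 7.09% ± 0.587. The shares of Lgals9 and Lgals8 were 30.3% and 9.91% with PBS and 38.6% and 14.4% with 2DG.

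Vim (ENSMUSG00000026728), the intermediate filament protein vimentin, was 74.9, 71.7 and 70.0 FPKM in MWA+PBS and 62.3, 64.5 and 66.1 FPKM in MWA+2DG. The means were 72.2 ± 2.49 and 64.3 ± 1.93 FPKM, and the log2 difference of -0.16 ± 0.05 was the smallest of the 7 lower genes. Crip1 (ENSMUSG00000006360), a small cysteine-rich LIM domain protein, was 3.19, 3.47 and 3.40 FPKM in MWA+PBS and 2.67, 2.65 and 2.76 FPKM in MWA+2DG. It was the least abundant of the 10 in both groups, with means of 3.35 ± 0.146 and 2.69 ± 0.0586 FPKM and a log2 difference of -0.24 ± 0.07. The groups were separate for both genes, although by 0.43 FPKM for Crip1.

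Of 3 tested LIM protein genes, limma called 2 lower, Crip2 (-1.50 ± 0.11, adjusted p = 5.43e-05) and Csrp1 (-0.66 ± 0.06, adjusted p = 0.00022), while Lasp1, the most abundant, was 35.2 ± 2.47 and 38.5 ± 4.04 FPKM with overlap (adjusted p = 0.284). All 3 were called lower with T lineage scaling, as were 8907 of all 12444 tested genes. Of 22 cytoskeleton genes, 4 were called higher and 2 lower, with a median log2 difference of 0.00; with T lineage scaling 0 were called higher and 20 lower, with a median of -0.45. The 3 largest differences among those called higher were those of Coro1a, the actin-binding coronin of leukocytes (0.32, adjusted p = 0.0067; -0.13 with T lineage scaling), Tpm4, a tropomyosin (0.29, adjusted p = 0.0193; -0.16), and Tmsb10, a thymosin (0.24, adjusted p = 0.0353; -0.22). The calls of Tpm4 and Tmsb10 were lost without MWA+PBS sample 1 or 3 or MWA+2DG sample 6 (adjusted p up to 0.0697 and 0.107), and that of Tmsb10 also without MWA+2DG sample 4 or 5, with median ratio scaling and with no filter. Lmnb1, the nuclear lamin B1, fell by 0.84 on the log2 scale (limma, adjusted p = 0.000127), while Lmna was at 1.24 ± 0.357 and 1.09 ± 0.116 FPKM (adjusted p = 0.644). Actb was 1107 ± 192 and 1223 ± 135 FPKM with overlapping groups (adjusted p = 0.421).

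Ahnak (ENSMUSG00000069833) encodes a giant scaffold protein under the plasma membrane that takes part in calcium channel function of T cells. It was 67.8, 63.9 and 71.0 FPKM in MWA+PBS and 82.7, 91.9 and 74.0 FPKM in MWA+2DG. The means were 67.6 ± 3.56 and 82.9 ± 8.91 FPKM, and the log2 difference of 0.29 ± 0.08 became -0.17 with T lineage scaling. MWA+2DG sample 6 was 3.02 FPKM above the highest MWA+PBS sample, and Ahnak had the widest spread of the 10 genes in MWA+2DG, with a coefficient of variation of 10.8%.

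Itgb1 (ENSMUSG00000025809), the integrin beta 1 chain that pairs with many alpha chains to bind fibronectin, collagen, laminin and VCAM-1, was 51.9, 54.8 and 50.3 FPKM in MWA+PBS and 56.2, 55.3 and 60.3 FPKM in MWA+2DG. The means were 52.3 ± 2.27 and 57.3 ± 2.67 FPKM. The log2 difference was 0.13 ± 0.06 and became -0.33 with T lineage scaling. The nearest samples of the groups were 0.53 FPKM apart, less than the SD within either group. With median ratio scaling and with the trend on transcript length removed, the difference was 0.08 and the groups overlapped.

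The main alpha partner in T cells, Itga4, was 53.8, 58.4 and 56.0 FPKM in MWA+PBS and 52.7, 59.7 and 53.5 FPKM in MWA+2DG (log2 difference -0.02 ± 0.06, limma, adjusted p = 0.826), and Itgb1 over Itga4 overlapped between groups. Of 6 tested alpha chains that pair with Itgb1, 0 were called higher and 2 lower by limma, and the same numbers held at an unadjusted p under 0.05. Of the same 6, T lineage scaling gave 6 lower and 0 higher, beside 8907 lower and 433 higher of all 12444 tested genes. On deposited FPKM the 2 were Itga9 (-1.76 ± 0.08, adjusted p = 5.91e-06) and Itga5, the fibronectin receptor chain (-0.59 ± 0.11, adjusted p = 0.00381). Itga9 was 5.04 ± 0.350 FPKM with PBS and 0.777 ± 0.0577 with 2DG.

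Leukocyte integrins without the beta 1 chain moved in both directions on deposited FPKM, while with T lineage scaling 1 was called higher and 6 lower. On that scale 433 of all 12444 tested genes were called higher and 8907 lower. Itgal and Itgb2, the chains of LFA-1, were 86.2 ± 4.77 and 164.1 ± 3.53 FPKM with PBS and 115.3 ± 1.80 and 198.8 ± 11.9 with 2DG. Their log2 differences were 0.42 ± 0.06 (limma, adjusted p = 0.00106) and 0.27 ± 0.06 (adjusted p = 0.00969), but -0.04 and -0.18 with T lineage scaling. Itgb7, the partner of Itga4 in gut homing, was higher at 0.28 ± 0.06 (adjusted p = 0.00892; -0.18 with T lineage scaling). Itgam, a chain of granulocytes and macrophages, was 5.57, 4.21 and 4.65 FPKM in MWA+PBS and 12.4, 12.4 and 12.9 FPKM in MWA+2DG (1.23 ± 0.09, adjusted p = 5.22e-05). Itgad, known from splenic macrophages, was 58.0, 51.9 and 57.8 FPKM against 7.31, 6.75 and 7.04 FPKM (-2.82 ± 0.06, adjusted p = 2.08e-07), and Itgb5 also fell (-2.16 ± 0.08, adjusted p = 2.84e-06). Neutrophil marker sums rose like Itgam, with 4 of the 16 markers lower, and macrophage marker sums fell like Itgad, and their part was not tested.

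Of beta chain FPKM, Itgb1 held 13.96% ± 0.967 with PBS and 13.1% ± 0.596 with 2DG, with overlap. Itgb2 over Itgb1 went from 3.14 ± 0.184 to 3.47 ± 0.199 without overlap. Of 11 tested adaptors that connect integrins to actin, limma called 3 lower and 0 higher (3 and 0 at an unadjusted p under 0.05): Parvb (-0.80, adjusted p = 0.0024), Vcl (-0.34, adjusted p = 0.0114) and Pxn (-0.26, adjusted p = 0.0157; up to 0.0621 without MWA+PBS sample 1 or 3 or MWA+2DG sample 6). Tln1 (talin), the adaptor that opens integrins, was 132.9, 107.7 and 140.5 FPKM in MWA+PBS and 107.3, 121.0 and 104.2 FPKM in MWA+2DG, with overlap (-0.19 ± 0.11, adjusted p = 0.199). All 11 adaptors were called lower with T lineage scaling, Tln1 among them (-0.64, limma, adjusted p = 0.00189). That scaling moved every gene by -0.45, and 8907 of all 12444 tested genes were called lower with it.

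Over the 9 lists of relatives and partners, 72 of 93 genes were tested and limma called 15 higher and 16 lower, or 20.8% and 22.2%, beside 22.3% and 17.1% of all tested genes. Their median log2 difference was -0.01. With T lineage scaling, 1 was called higher and 64 lower, beside 433 higher and 8907 lower of all 12444 tested genes.

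**Figure D3:**
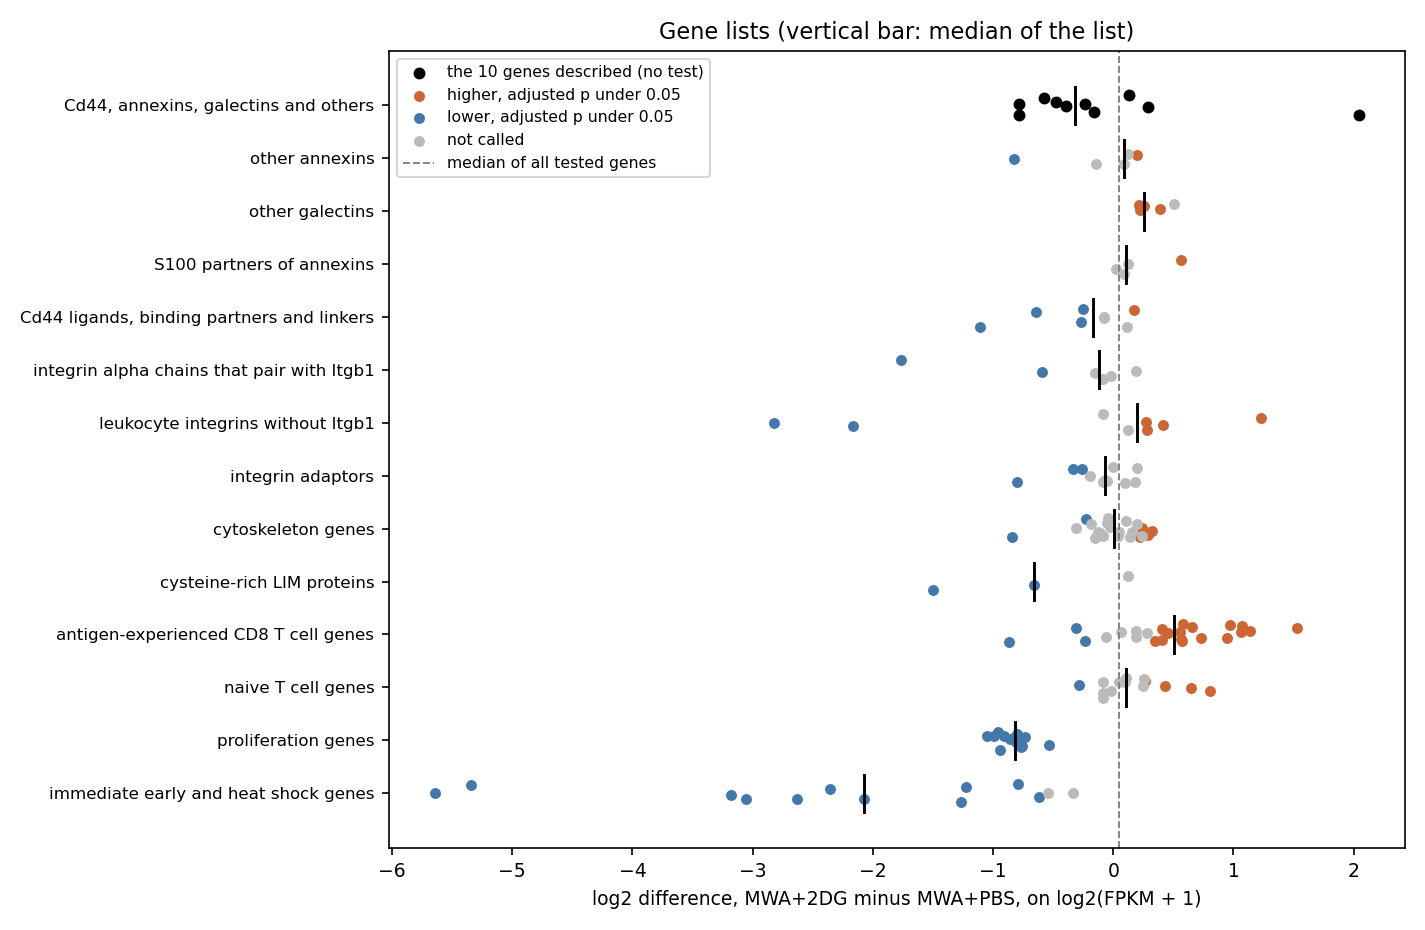
Log2 differences (horizontal axis, MWA+2DG minus MWA+PBS, on log2(FPKM + 1)) of the 10 genes (black) and of the tested genes of 9 related and 4 cell state lists, each on its own row. Orange and blue points are genes called higher and lower, grey points were not called, black bars are list medians and the dashed line is the median of all tested genes, 0.05. The median of the 10 genes was -0.32, that of antigen-experienced CD8 T cell genes was 0.51.

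Other genes of antigen-experienced CD8 T cells, none of them among the 10, were mostly higher with 2DG. Of 24 tested, limma called 16 higher and 3 lower, with a median log2 difference of 0.51; with T lineage scaling, 6 were called higher and 6 lower. The chemokine receptor Cxcr3, which marks memory cells, was 18.4, 14.4 and 13.9 FPKM in MWA+PBS and 45.2, 44.6 and 50.1 FPKM in MWA+2DG (1.53 ± 0.11, adjusted p = 4.08e-05). The granzyme gene Gzmk rose as well (1.14 ± 0.11, adjusted p = 0.000182). The effector factor Zeb2 (-0.87, adjusted p = 0.000122), the cytotoxic granzyme Gzmb (-0.31, adjusted p = 0.00964) and the cytokine receptor chain Il2rb (-0.24, adjusted p = 0.0225) were lower. The call of Il2rb was lost when any sample but MWA+PBS sample 2 was left out (adjusted p up to 0.0780).

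Of 14 naive T cell genes 4 were called higher and 1 lower, with a median of 0.10. With T lineage scaling 2 were called higher and 10 lower, beside 433 and 8907 of all 12444 tested genes. S1pr1, which lets cells leave lymphoid tissue, was higher at 0.80 ± 0.05 (limma, adjusted p = 1.4e-05), and Ccr7, the lymph node homing receptor, at 0.64 ± 0.06 (adjusted p = 0.000177). All 14 proliferation genes were called lower, also with T lineage scaling, with a median of -0.82. Of 13 immediate early and heat shock genes 11 were called lower and 0 higher by limma (13 and 0 at an unadjusted p under 0.05), with a median of -2.07. Hspa1b, an inducible heat shock protein, fell from 232.3 ± 12.1 to 3.68 ± 0.245 FPKM (-5.64 ± 0.06, adjusted p = 1.72e-08). The part that proliferation and stress genes have in the values of the 10 genes was not tested.

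Because FPKM is scaled per length, levels can be set beside each other between genes. With PBS the order from high to low was Lgals1, Vim, Ahnak, Itgb1, Anxa5, Cd44, Lgals3, Anxa2, Anxa1 and Crip1, and the sample values of the neighbours Lgals1 and Vim, Vim and Ahnak, and Lgals3 and Anxa2 overlapped. With 2DG it was Ahnak, Vim, Itgb1, Lgals1, Anxa1, Anxa5, Cd44, Anxa2, Lgals3 and Crip1, with overlap for Itgb1 and Lgals1, Anxa5 and Cd44, and Anxa2 and Lgals3. Lgals1 went from place 1 to place 4, Ahnak from place 3 to place 1, and Anxa1 from place 9 to place 5. The sum over the 10 genes was 379.4 FPKM with PBS and 366.2 FPKM with 2DG.

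Scaling mattered most for the small differences. With T lineage scaling, every log2 difference moved by -0.45, including the median of all tested genes, which went from 0.05 to -0.41. On that scale Anxa1 stood at 1.59, Cd44 at -0.85, Anxa2 at -1.03, Anxa5 at -1.23, Lgals1 at -0.93, Lgals3 at -1.24, Vim at -0.62 and Crip1 at -0.69. Under the other 15 alternatives run for them (14 for Crip1, whose mean FPKM is under 5), the 10 genes kept their direction. The range over these was 1.97 to 2.14 for Anxa1 and -0.44 to -0.36 for Cd44. Filters, the pseudocount, the eBayes trend, sample weights and leaving out 1 sample could not turn the direction of genes whose groups were separate. Only quantile normalization, the other scalings and removal of the length trend could have done so. Ahnak overlapped between the groups with median ratio and with T lineage scaling, and Itgb1 with median ratio scaling and with the length trend removed. With T lineage scaling 9 of the 10 were separate, 1 higher and 8 lower. The share of all tested genes that were separate on that scale was not computed, so nothing is read from this count.

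**Figure D4:**
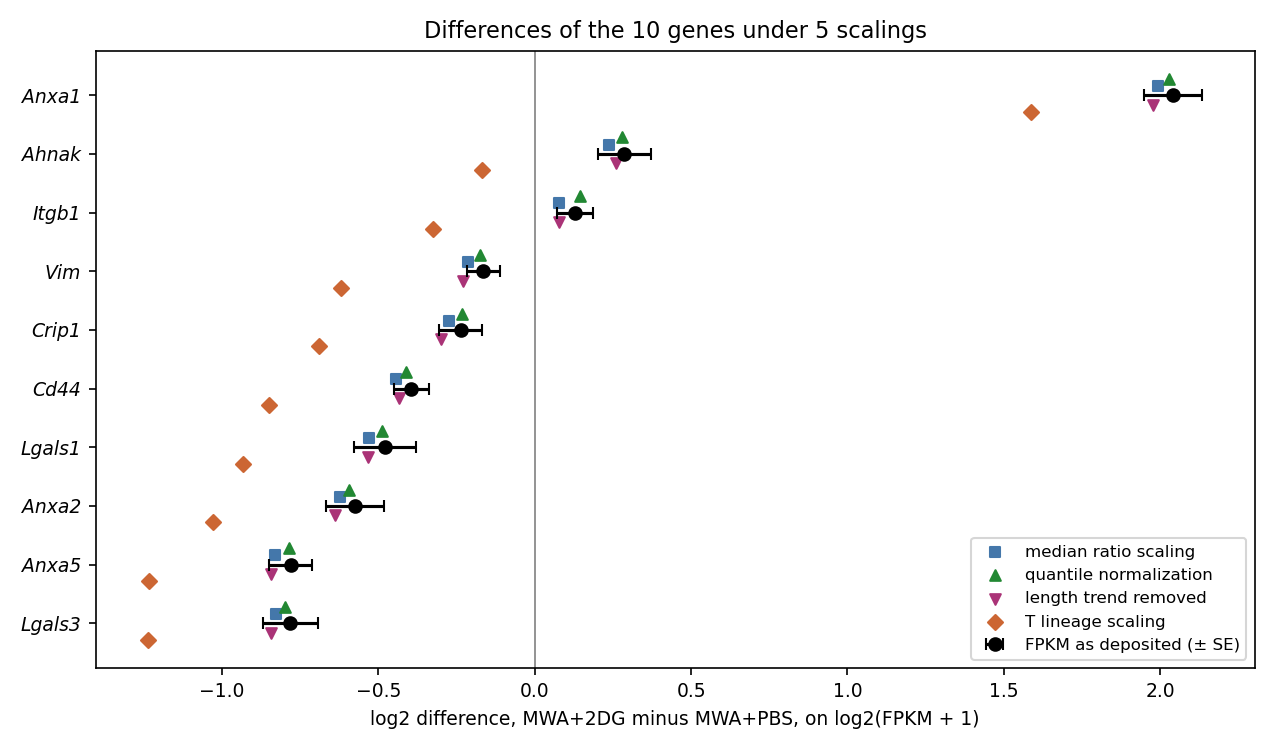
Log2 differences (horizontal axis, MWA+2DG minus MWA+PBS, on log2(FPKM + 1)) of the 10 genes under 5 scalings, with the SE of the limma fit around the value on deposited FPKM. With T lineage scaling (orange diamonds) Ahnak (-0.17) and Itgb1 (-0.33) lie below 0, while Anxa1 stays above 0 and the other 7 below 0 under each scaling.

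Within a group, the 10 genes did not vary as a block. Coefficients of variation were between 2.18% for Crip1 with 2DG and 13.6% for Anxa1 with PBS. MWA+PBS sample 2 was the highest of its group for 6 of the 10 genes and MWA+PBS sample 3 the lowest for 7, but Cd44 and Ahnak were lowest in sample 2. Ahnak followed Tln1 and Actb instead, each highest in MWA+PBS sample 3 and lowest in sample 2, and highest in MWA+2DG sample 5 and lowest in sample 6. Lgals3, Anxa1 and S100a10 were highest in MWA+PBS sample 2 and lowest in sample 3, and highest in MWA+2DG sample 4 and lowest in sample 5. With 3 samples a group, these orders are a description.

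**Figure D5:**
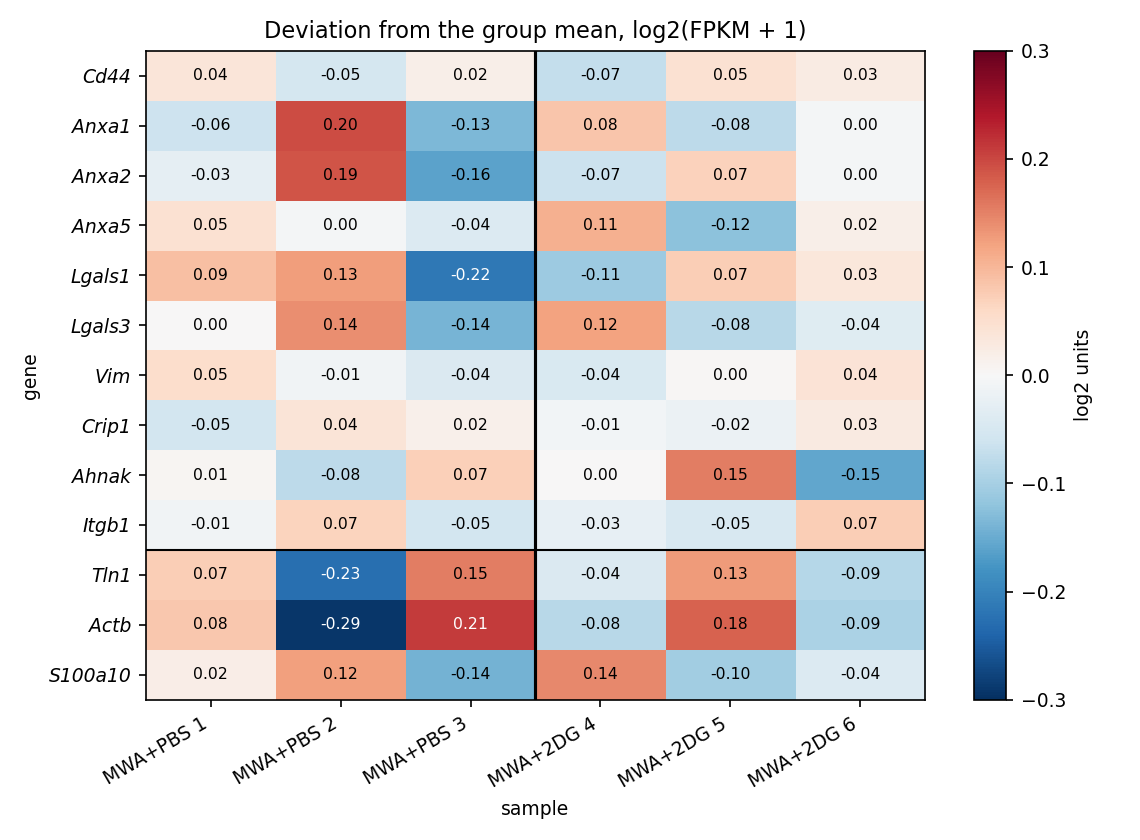
Deviation of each sample (columns) from its group's mean on log2(FPKM + 1) for the 10 genes and, under the line, for Tln1, Actb and S100a10; red is above and blue below the mean. MWA+PBS sample 3 is the lowest of its group for 7 of the 10 genes.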

How the data were processed

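RNA from splenic CD8+ T cells of 6 samples was sequenced from poly(A) libraries that keep the strand and carry molecular identifiers in their adapters. The authors trimmed and checked reads, mapped them with HISAT2 and deposited FPKM values per gene from StringTie and ballgown, 1 file per sample with 2 decimals. The submitters' processing notes name cutadapt 1.9, HISAT2 2.0.4, UMI-tools, StringTie 1.3.4d and the build mm9; of the annotation, and of any use of strand in quantification, the sources used here say nothing. FPKM is relative to a library's total (291803 to 313257 FPKM summed, 22414 to 23340 genes above 0), so more fragments from some genes lower the values of the rest, and read depth is unknown. Groups came from the GEO labels, which do not say whether samples are separate mice, so p-values measure only the spread between these samples, which may be technical.

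Gene symbols and transcript lengths came from GENCODE M21, and promoters from RefSeq (GRCm38.p6); no coordinate was converted from mm9. The promoter of Lgals1 is not analysed here. MWA+2DG was compared with MWA+PBS by limma 3.58.1 in R 4.3.3 (lmFit, eBayes with a trend, two-sided, no covariate) on log2(FPKM + 1), on which changes of low genes are understated. The fit covered 12444 genes with a mean FPKM of at least 1, with Benjamini-Hochberg adjustment over all of them. It was tried on simulated data with independent noise and far fewer changed genes than were called here. That trial therefore does not measure its performance in these samples. Called means an adjusted p under 0.05. For the 10 genes only values, differences and standard errors are given. The 10 genes and the lists were chosen with earlier results of these data known; 277 of 282 list genes matched a row, and the other 5 are not analysed here. Named were the 10 genes; per related or cell state list at most 3 called genes in each direction, those with the largest differences among genes without overlap; a set of partners and markers; and the 5 genes nearest to Cd44. Some genes that this rule names are not reported here. Alternatives were a pseudocount of 0.1, a mean FPKM of at least 5 or no filter, median ratio scaling, T lineage scaling, quantile normalization, scaling that leaves out genes of ribosomal proteins, haemoglobins, immunoglobulins and mitochondria, eBayes without a trend, arrayWeights, leaving out each sample, and, added after seeing the data, removal of each sample's trend on transcript length.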

Additional observations from a re-analysis of the deposited data

How the results depend on the processing

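Limma called 4907 of the tested genes, 2951 with a mean FPKM of at least 5, where fewer genes were tested, and 9340 with T lineage scaling (433 higher and 8907 lower). Leaving out 1 sample gave between 3706 and 5195. Of the related genes 31 were called, 65 with T lineage scaling (1 higher and 64 lower), and between 21 and 41 when a sample was left out. Those called higher went from 15 to 9 without MWA+PBS sample 1 or 3 and to 7 without MWA+2DG sample 4 or 6, and those called lower went from 16 to 8 with a mean FPKM of at least 5. With T lineage scaling the log2 differences of Ahnak and Itgb1 were reversed, at -0.17 and -0.33, since that scaling moves each gene by -0.45. Under the other alternatives each of the 10 genes kept its direction, except that Crip1 was not in the fit with a mean FPKM of at least 5. Of these alternatives, only quantile normalization, the scalings and removal of the length trend could have turned a direction, since the groups were separate. Of the 10, 8 to 10 did not overlap between groups (9 of the 9 tested with a mean FPKM of at least 5). The share of all tested genes without overlap was computed only for the main fit on deposited FPKM, so nothing is read from these counts. Removing the trend on transcript length left Ahnak at 0.26 and Itgb1 at 0.08. No paired analysis was possible because the replicate numbers (1 to 3 and 4 to 6) are not shared between the groups. FPKM without counts gives no interval for counting error, which limits Crip1 and the other genes of low FPKM most.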
